A study of Mus musculus with 4 samples.

Results

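Pelp1 and the genes of the protein complex built around it, the rixosome, were followed in the hippocampus of mice with and without a forebrain deletion of Pelp1. The members were the genes whose symbol in the count files equals Pelp1, Tex10, Wdr18, Senp3, Las1l, Nol9 or Mdn1, 7 of the 22609 genes listed. All 7 were found and all 7 passed the filter on low counts. Hippocampal RNA came from ovariectomized C57BL/6 mice of the FLOXED genotype (2 libraries), in which PELP1 is flanked by recombination sites, and of the PELP1 FBKO genotype (2 libraries), the forebrain knockout, called knockout below where that is clear. Mice of both genotypes carried E2 (estradiol) mini pumps and went through GCI, global cerebral ischemia, in which blood flow to the brain is stopped for a time, and their tissue was taken at 24 h of reperfusion. Mice without ischemia, without estradiol or with intact ovaries are not analysed here, so a difference that precedes any of these cannot be told apart from a response to it. The age of the mice, the promoter that drives the recombinase, whether FLOXED mice carry the recombinase and the exons removed are not given in those labels. Sequencing was run in duplicate according to the submitters, and no source says that the libraries of a genotype are different animals; p-values therefore measure the spread between these libraries, which may be technical.

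The rixosome works in the nucleolus and nucleoplasm on the precursor of the large (60S) ribosomal subunit. Pelp1, Tex10 and Wdr18 form its core. Las1l is the nuclease that cuts the internal transcribed spacer ITS2 in the precursor ribosomal RNA. Nol9 is the kinase that prepares the cut ends for trimming. Senp3 removes the small modifier SUMO from Pelp1 and from nucleophosmin. The giant ATPase Mdn1 pulls assembly factors off the particle before it leaves the nucleus. Pelp1 is also known as a coregulator of estrogen receptors, which it links to kinases at the membrane and to chromatin in the nucleus.

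Between 17524594 and 22447658 reads were assigned to genes per library, and values below are CPM, a gene's reads relative to all gene reads of its library, scaled by TMM, the trimmed mean normalization of edgeR. The FLOXED 1 library stood apart in the share of alignments that were not unique, 47.7% against 38.5% to 41.5% in the other 3. It held the highest level of the 4 libraries in 32.6% of tested genes. Markers of hippocampal neurons were present in every library, and none of the marker genes examined was at 0 in all 4. Camk2a of forebrain excitatory neurons read 3560 and 3930 CPM in the FLOXED libraries against 4605 and 3374 CPM in the knockout libraries, with the groups overlapping. Prox1 of dentate granule cells read 25.3 and 27.0 CPM in the FLOXED libraries against 59.3 and 40.2 CPM in the knockout libraries.

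Transcripts of the targeted gene itself were still counted in the knockout, at a level 33.4% below that of FLOXED, a difference that did not pass the test over all genes. Pelp1 had 468 reads in the FLOXED 1 library and 569 in the other FLOXED library, and 396 and 353 in the knockout libraries. Scaled, it read 26.7 and 26.2 CPM in the FLOXED libraries against 17.9 and 17.3 CPM in the knockout libraries. The highest and lowest library of a genotype differed 1.02-fold in FLOXED and 1.04-fold in the knockout, so the gap between genotypes was the larger one. Exact Poisson intervals (95%, counting error only) of the unscaled CPM ran from 23.9 to 29.2 across the FLOXED libraries and from 15.9 to 19.7 across the PELP1 FBKO libraries, so counting alone does not join the groups. PELP1 FBKO kept 66.6% of the FLOXED level (95% interval from the edgeR model, 52.5% to 84.4%), a log2 fold change of -0.59 (SE 0.149). By edgeR's quasi-likelihood test the adjusted p was 0.130, and over 15 alternatives it ranged from 0.0432 to 0.345. Only edgeR's exact test put Pelp1 past the threshold of 0.05 (adjusted p = 0.0432), where that test called 1.32% of tested genes lower. Counts are per gene and not per exon, so a shortened transcript from a recombined allele would be counted with an intact one. In whole tissue, fewer cells that express a gene and less RNA per cell cannot be told apart.

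**Figure D1:**
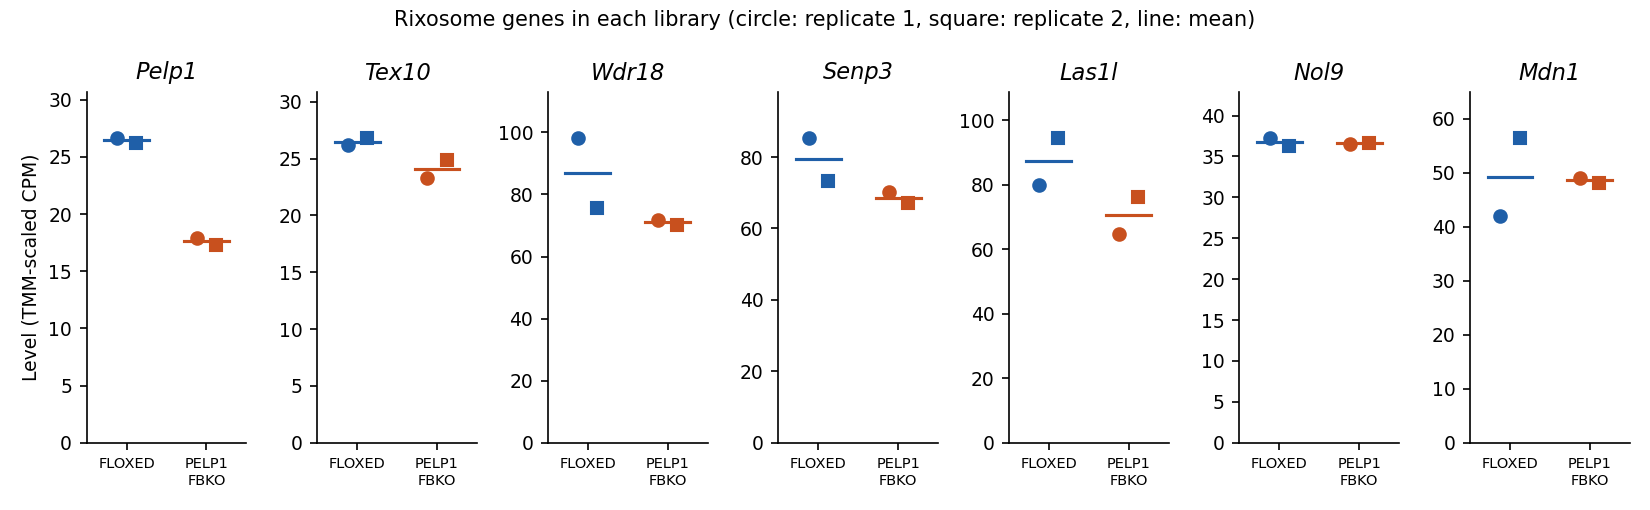
Level of each rixosome gene (vertical axis, TMM-scaled CPM, starting at 0, a separate scale for each gene) in the 2 FLOXED libraries (blue) and the 2 PELP1 FBKO libraries (orange); circles are replicate 1, squares replicate 2 and lines group means, with no error bar because each group has 2 points. Pelp1 is at 17.9 and 17.3 CPM in the knockout, below the 26.7 and 26.2 CPM of FLOXED, while Nol9 lies between 36.2 and 37.3 CPM in all 4 libraries.

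For the other subunits of the core the estimates were smaller than for Pelp1, and neither was past the threshold. Tex10, which holds the core together with Pelp1, read 26.2 and 26.8 CPM in the FLOXED libraries against 23.3 and 24.9 CPM in the knockout libraries. The groups did not overlap, but the log2 fold change was only -0.14 (95% interval -0.47 to 0.20). Wdr18, the WD-repeat subunit, read 98.3 and 75.7 CPM in the FLOXED libraries against 71.9 and 70.3 CPM in the knockout libraries. Here FLOXED 1 was the high library and FLOXED 2 came close to the knockouts. The log2 fold change of Wdr18 was -0.29 (SE 0.154, 95% interval -0.65 to 0.06). It was -0.09 without FLOXED 1 and -0.48 without FLOXED 2, so its size rested on which FLOXED library was kept. Neither gene passed the edgeR quasi-likelihood test (adjusted p = 0.700 for Tex10 and 0.408 for Wdr18).

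Among the enzymes of the complex, Las1l and Senp3 were on the lower side and Nol9 was level. Las1l, the endonuclease that makes the first cut in ITS2, read 80.1 and 94.6 CPM in the FLOXED libraries against 64.7 and 76.4 CPM in the knockout libraries. This was the largest difference among the partners, a log2 fold change of -0.31 (SE 0.148, 95% interval -0.65 to 0.03), and in contrast to Wdr18 it was FLOXED 2 that was highest. It was -0.43 without FLOXED 1 and -0.20 without FLOXED 2. Senp3, the SUMO protease, read 85.4 and 73.2 CPM in the FLOXED libraries against 70.1 and 67.1 CPM in the knockout libraries. Its log2 fold change was -0.21 (95% interval -0.52 to 0.10), and -0.10 without FLOXED 1 and -0.33 without FLOXED 2. Nol9, the polynucleotide kinase that prepares the cut ends for trimming, read 37.3 and 36.2 CPM in the FLOXED libraries against 36.6 and 36.7 CPM in the knockout libraries. Its log2 fold change of -0.01 had a 95% interval of -0.31 to 0.30, and its sign turned under 4 of 15 alternatives. Mdn1 read 42.0 and 56.5 CPM in the FLOXED libraries against 49.1 and 48.1 CPM in the knockout libraries. The knockout libraries thus lay between the FLOXED ones, which differed 1.34-fold from each other. Its log2 fold change of -0.02 (95% interval -0.40 to 0.36) became -0.22 without FLOXED 1 and turned to 0.20 without FLOXED 2.

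Of the 7 members, 0 were past the threshold in edgeR's quasi-likelihood test, and 0 of the 14978 tested genes were (0%). The smallest adjusted p of that test was 0.0501, shared by 23 genes, so the count of 0 lay close to the threshold. At an unadjusted p under 0.05 1 member, Pelp1, was lower and 0 were higher, where 5.55% of tested genes were lower and 10.1% higher. DESeq2 called 0 members, and it called 0.895% of tested genes lower. All 7 log2 fold changes were negative, with a median of -0.21, and that of the 6 partners alone was -0.17. Over all tested genes the median was 0.00 and 50.0% were negative. The groups did not overlap in 5 members, Pelp1, Tex10, Wdr18, Senp3 and Las1l, all lower in PELP1 FBKO, where 23% of tested genes were lower without overlap and 25.4% higher. The same 5 genes were separated under TMM, RLE, upper-quartile and unscaled CPM. The 95% intervals of the 6 partners all include 0, and their lower ends lie between -0.65 and -0.31, so the data do not show that the partners were at FLOXED levels.

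**Figure D2:**
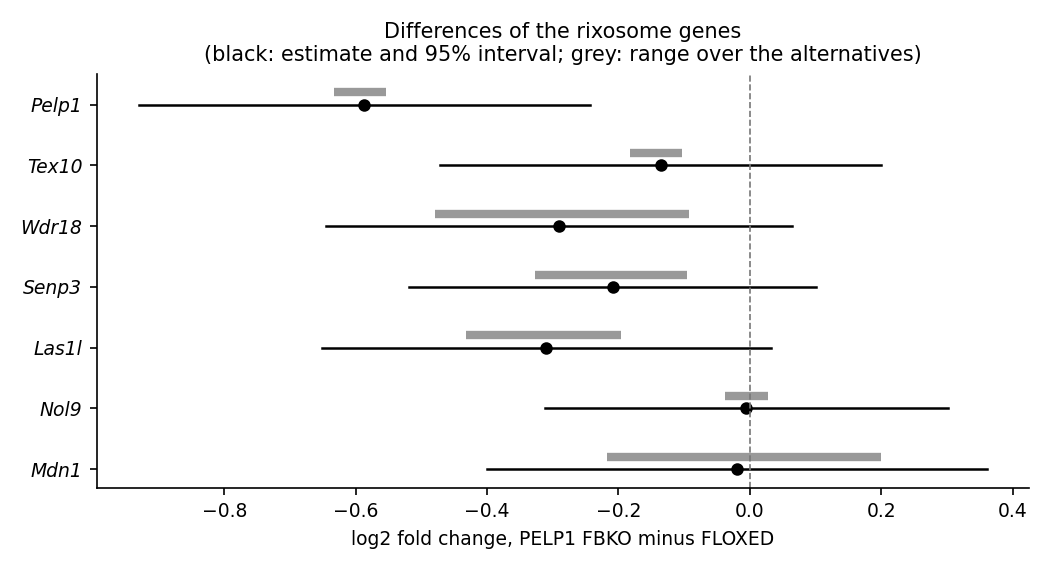
Log2 fold change of each rixosome gene (horizontal axis, PELP1 FBKO minus FLOXED); black points are estimates of the edgeR quasi-likelihood fit with 95% intervals, and grey bars span the estimates of the 15 alternatives. Only the interval of Pelp1 lies wholly below 0 (-0.93 to -0.24), and the grey bars of Wdr18 and Mdn1 are the widest.

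Because the members were counted in the same libraries, the balance of their transcripts can be read without any scaling between libraries. The log2 ratio of Pelp1 to the geometric mean of the other 6 members was -1.04 and -1.08 in FLOXED and -1.45 and -1.54 in PELP1 FBKO. The difference of -0.43 corresponds to a 25.8% lower Pelp1 share, against a pooled SD within genotypes of 0.0481. It stayed between -0.39 and -0.48 when any 1 library was left out. With 2 libraries against 2 an exact permutation test cannot go below a two-sided p of 0.333, so none is given. Against single partners the difference was largest relative to Mdn1 and Nol9 (-0.58 each) and smallest relative to Las1l (-0.28). The ratio to Nol9 had the smallest spread within genotypes, at -0.48 and -0.47 in FLOXED and -1.03 and -1.09 in PELP1 FBKO. The genotypes overlapped in the ratio of Pelp1 to Las1l. The 6 ratios share the Pelp1 reads and are not independent. For the 15 ratios between partners the differences ran from -0.31 to 0.17. The genotypes did not overlap in 5 of these 15 and overlapped in 10, so separated ratios were not particular to Pelp1. With Pelp1 they did not overlap in 5 of 6. The ratios of Las1l to Mdn1 (-0.31) and to Nol9 (-0.30) were among the separated ones.

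Levels of different genes were compared per kb of the longest coding transcript in GENCODE vM21. In FLOXED the order was Senp3 (34.3 ± 3.72 CPM per kb, SD, n = 2), Las1l (33.8 ± 3.98), Wdr18 (22.2 ± 4.08), Nol9 (9.88 ± 0.197), Tex10 (8.27 ± 0.149), Pelp1 (7.70 ± 0.0905) and Mdn1 (2.74 ± 0.570). The order was the same in PELP1 FBKO, where Pelp1 was at 5.13 ± 0.137 and Tex10 at 7.53 ± 0.349 CPM per kb. Over all 4 libraries the ranges of Senp3 and Las1l, of Las1l and Wdr18, and of Tex10 and Pelp1 overlapped, while Wdr18 lay above Nol9, Nol9 above Tex10 and Pelp1 above Mdn1 in every library. Within each genotype the scaffold Pelp1 was below its partner Tex10 in both libraries, at 7.77 and 7.64 against 8.17 and 8.38 CPM per kb in FLOXED and at 5.22 and 5.03 against 7.29 and 7.78 in the knockout. Among 14346 tested genes with a coding length, Senp3 and Las1l stood at percentiles 83.4 and 83.2 in FLOXED, Pelp1 at percentile 48.3 and Mdn1 at percentile 28.6. Transcript choice matters for this order: with all annotated exons merged, Wdr18 stood above Las1l in both genotypes. Pelp1 and Nol9 were then about level in FLOXED (7.43 and 7.42 CPM per kb), both above Tex10 (6.05). In the knockout Pelp1 (4.95) was below Nol9 (7.39) and Tex10 (5.51). The low value of Mdn1 goes with a transcript of 17970 bases, several times longer than those of the other members.

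**Figure D3:**
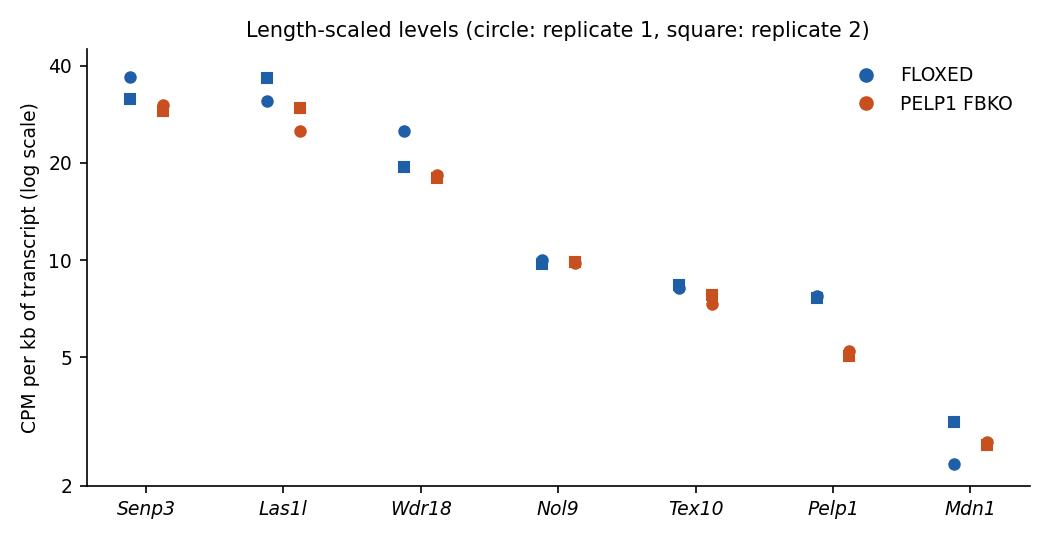
Length-scaled level of each rixosome gene (vertical axis, CPM per kb of the longest coding transcript, log scale) in each library, with FLOXED in blue and PELP1 FBKO in orange, circles for replicate 1 and squares for replicate 2. Senp3, Las1l and Wdr18 form an upper group that reaches 36.9, and Pelp1 lies below Tex10 in both genotypes, at a mean of 7.70 in FLOXED and 5.13 in the knockout.

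The promoter windows of the members were read for CG dinucleotides and motifs, which the choice of genes did not use. In RefSeq's windows of 300 bases, 250 before and 50 after each start (build GRCm38.p6, newer than the build of the counts, matched by symbol), all 7 members had an entry, with 9 windows in all. They held between 19 and 35 CG pairs, where the median over 32851 windows was 7. These counts stood between percentiles 73.5 and 93.8 of all windows, so such CG content is common and not particular to these genes. Printed here are those of Pelp1, the targeted gene, of its core partner Tex10, and of Las1l, the partner with the largest difference. Capitals mark matches on either strand to CACGTG (E-box, 7.15% of all windows), CCGGAA (ETS core, 14.9%), CCAAT (37.41%) and TATAAA (13.62%); the only overlap between matches shown is that of a pair of CCAAT copies on opposite strands in Las1l.
Pelp1 (chr11:70409982-70410281, minus strand): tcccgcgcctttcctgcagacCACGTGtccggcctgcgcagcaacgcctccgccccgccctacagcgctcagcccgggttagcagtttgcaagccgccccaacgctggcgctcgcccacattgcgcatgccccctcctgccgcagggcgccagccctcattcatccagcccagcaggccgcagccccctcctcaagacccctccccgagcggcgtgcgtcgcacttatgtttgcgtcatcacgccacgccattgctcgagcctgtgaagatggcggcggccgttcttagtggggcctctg
Tex10 (chr4:48473414-48473713, minus strand): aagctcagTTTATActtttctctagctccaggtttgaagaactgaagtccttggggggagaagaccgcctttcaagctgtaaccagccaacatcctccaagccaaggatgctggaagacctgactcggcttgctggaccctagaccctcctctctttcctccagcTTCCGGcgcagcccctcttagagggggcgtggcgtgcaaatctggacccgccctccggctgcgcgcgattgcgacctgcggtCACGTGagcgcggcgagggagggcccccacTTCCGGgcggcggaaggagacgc
Las1l (chrX:95956854-95957153, minus strand): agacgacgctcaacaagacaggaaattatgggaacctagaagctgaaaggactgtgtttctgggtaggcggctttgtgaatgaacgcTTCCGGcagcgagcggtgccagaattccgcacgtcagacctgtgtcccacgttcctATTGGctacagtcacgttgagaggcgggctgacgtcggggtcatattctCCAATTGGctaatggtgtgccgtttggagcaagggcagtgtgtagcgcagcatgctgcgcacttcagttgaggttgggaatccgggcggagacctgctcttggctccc
The E-box letters occurred in the windows of Pelp1, Tex10 and Mdn1, and the ETS core in those of Tex10, Las1l and Nol9. The palindromic estrogen response element was in 0 of the 9 windows and in 0.07% of all windows, its single arm AGGTCA was in 0 of the 9 and in 16.26% of all, and the NRF1 core was in 0 of the 9 and in 0.97% of all. E-box and ETS letters thus occurred both in members whose genotypes were separated and in members whose genotypes overlapped, and CCAAT only in Las1l and Senp3. These matches describe the windows and are no evidence of binding.

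Outside the rixosome, other genes of 60S assembly had mostly negative log2 fold changes, with 0 past the threshold in edgeR's quasi-likelihood test. Of 43 tested factors of pre-60S assembly, remodelling and export (Noc2l was listed but not counted), 37 had a negative log2 fold change and 6 a positive one, with a median of -0.17. At an unadjusted p under 0.05 4 of 43 were lower and 0 higher, where 5.55% of all tested genes were lower and 10.1% higher. DESeq2 and edgeR's exact test each called 1 lower, where they called 0.895% and 1.32% of tested genes lower. The smallest p belonged to Eif6, which keeps the immature 60S subunit from joining the 40S. It read 95.9 and 70.2 CPM in the FLOXED libraries against 52.6 and 52.5 CPM in the knockout libraries, a log2 fold change of -0.66 (SE 0.166, adjusted p = 0.129). Next were Bop1 of the PeBoW complex (-0.45), Mak16 (-0.38) and Nop53, listed as Gltscr2, which brings the exosome to the particle (-0.36). Factors on which the rixosome and Mdn1 act directly were read whatever their p. Npm1, nucleophosmin, had a log2 fold change of -0.23 (95% interval -0.60 to 0.13), and the Mdn1 substrates Wdr12 and Nle1 had -0.11 and -0.23. Nvl, another AAA ATPase of this pathway, was at -0.08. The groups overlapped for Npm1, Nle1 and Nvl, and not for Wdr12. Over the 43 factors the groups did not overlap in 22 that were lower and 1 that was higher, against 23% and 25.4% of tested genes.

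Nucleases that trim ITS2 and other 3' ends of ribosomal RNA after the Las1l cut pointed the same way. All 18 had negative log2 fold changes, from -0.40 to -0.04, with a median of -0.16; 1 of 18 was lower at an unadjusted p under 0.05, near the 5.55% of all tested genes, and edgeR's exact test and DESeq2 called 0. That gene was Rexo4 (-0.32), followed in order of p by the exosome subunit Exosc4 (-0.40), the 3' exonuclease Eri1 (-0.34) and the exosome subunit Exosc5 (-0.37). Both direct partners of the Las1l cut were close to 0, the 5' exonuclease Xrn2 at -0.04 and the 3' exonuclease Isg20l2 at -0.09. Among the 18 nucleases the groups did not overlap in 7 that were lower and 0 that were higher, against 23% and 25.4% of tested genes. For both lists FLOXED 1 stood apart: it held the highest level of the 4 in 34 of the 43 pre-60S factors and 16 of the 18 nucleases, against 32.6% of all tested genes. Without FLOXED 1 the medians were -0.09 and -0.04, without FLOXED 2 they were -0.31 and -0.29, and without the second knockout library -0.27 and -0.25. Unscaled CPM of the pre-60S factors summed to 2935 and 2572 in FLOXED and to 2343 and 2559 in PELP1 FBKO. For the nucleases the sums were 711 and 599 CPM in FLOXED and 549 and 620 CPM in PELP1 FBKO. In both sums FLOXED 1 was the highest library and PELP1 FBKO 1 the lowest. Of the genes named from both lists, Bop1, Gltscr2, Wdr12, Exosc4 and Isg20l2 overlap other counted genes, and how overlapping reads were assigned is not known. Among the 7 rixosome genes FLOXED 1 was highest in 4 and FLOXED 2 in 3.

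SUMO pathway and polycomb genes, which meet the rixosome outside ribosome assembly, showed no common direction. Of 19 genes around Chtop, the methylated protein to which Pelp1, Tex10, Wdr18, Senp3 and Las1l bind, and around SUMO, 13 were negative and 6 positive, with a median of -0.05. By edgeR's quasi-likelihood test, DESeq2 and the exact test 0 were called, and 0 had an unadjusted p under 0.05. Chtop itself, listed as 2500003M10Rik, read 142 and 147 CPM in the FLOXED libraries against 136 and 143 CPM in the knockout libraries. Both subunits of the SUMO activating enzyme, Sae1 and Uba2, were at -0.27 and -0.24, and the ligase gene Pias2 was at -0.24. Polycomb repressive complex 1, which brings the rixosome to silenced chromatin, had 10 negative and 9 positive genes of 19, a median of 0.00, and 0 called by all 3 of those tests. At an unadjusted p under 0.05 2 of 19 were higher and 1 was lower, shares near the 10.1% and 5.55% of all tested genes. These were Phc1 (0.36), Pcgf2 (0.38) and the ubiquitin ligase gene Ring1 (-0.33). Phc2, a paralog of Phc1, was at -0.28.

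**Figure D4:**
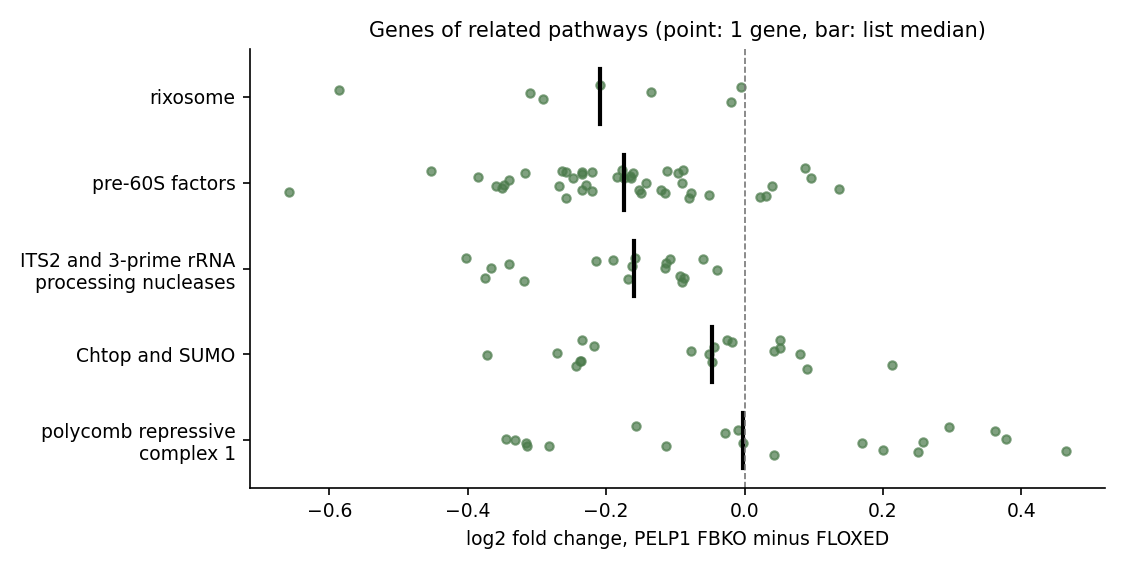
Log2 fold change (horizontal axis, PELP1 FBKO minus FLOXED) of every tested gene of the rixosome and of 4 related lists; points are genes, scattered vertically only for legibility, and black bars are list medians. Medians lie at -0.21 for the rixosome, -0.17 for pre-60S factors and -0.16 for the nucleases, and near 0 for the SUMO and polycomb lists.

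Neighbours of Pelp1 on its chromosome were examined because the recombined allele lies among them. Of the 10 nearest tested genes on each side in RefSeq order, 15 of 20 had a negative log2 fold change and 5 a positive one, with a median of -0.10. By edgeR's quasi-likelihood test and by DESeq2 0 were past the threshold; at an unadjusted p under 0.05 1 was lower and 1 higher, where 5.55% of tested genes were lower and 10.1% higher. The lower one was Arrb2, the beta-arrestin gene next to Pelp1. It read 73.0 and 59.6 CPM in the FLOXED libraries against 50.9 and 51.6 CPM in the knockout libraries, a log2 fold change of -0.37 (SE 0.144, adjusted p = 0.269). On the other side Rnasek, a ribonuclease gene, was at -0.24 and the unnamed gene model 0610010K14Rik at -0.39. Med11, of the Mediator complex, was at -0.24 and Psmb6, a proteasome subunit, at -0.34. In all of these FLOXED 1 was the highest library, and without it the values were nearer to 0: -0.22 for Arrb2, -0.06 for Rnasek, -0.13 for 0610010K14Rik, -0.11 for Med11 and -0.15 for Psmb6. The higher one, Asgr2, stayed near 1 CPM or below in each library. The groups did not overlap in 8 of the 20 neighbours that were lower and 4 that were higher, against 23% and 25.4% of tested genes. Pelp1 itself, at -0.59, lay below each of the 20. Senp3 sits on the same chromosome, with 30 tested genes between it and Pelp1.

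**Figure D5:**
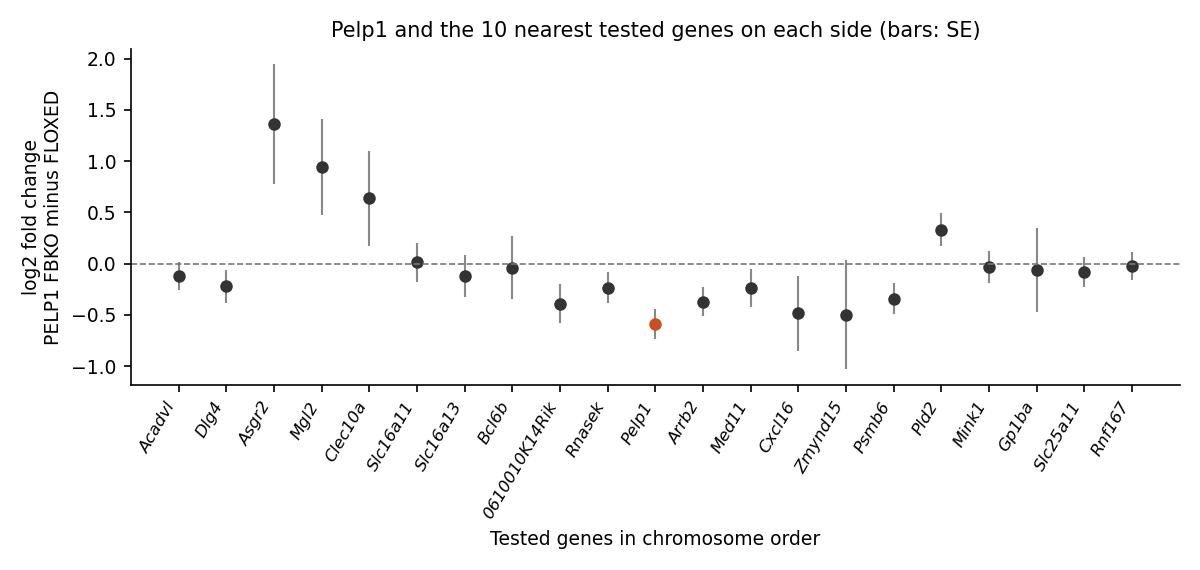
Log2 fold change (vertical axis, PELP1 FBKO minus FLOXED) of Pelp1 (orange) and of the 10 nearest tested genes on each side (black), placed in chromosome order at even steps; bars are SE from the edgeR fit. Pelp1 has the lowest value, -0.59, and both of its nearest tested neighbours on each side lie between -0.39 and -0.24.

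The genes whose profile over the 4 libraries was most like that of Pelp1 were Mal2, Fhl2, Tmem200a, Vegfa and Arhgef2. Likeness was the Euclidean distance between mean-centred log2 CPM, among 10272 genes with a mean of at least 10 CPM. The distance of Mal2, a membrane proteolipid gene, was 0.0383, and its levels were 308 and 296 CPM in FLOXED and 208 and 195 CPM in PELP1 FBKO. Vegfa, the vascular growth factor gene, was at distance 0.0840 with a log2 fold change of -0.60. In all, 74 genes lay within 0.2 of Pelp1, so 4 libraries do not single out a few. The partners of Pelp1 were much farther, from 0.395 for Las1l, which ranked 1204th, to 0.666 for Mdn1, which ranked 6211th.

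Markers of cell types moved with genotype in the same libraries, and their part in the levels of the rixosome genes was not tested. Summed levels in this paragraph are of unscaled CPM. Of 7 oligodendrocyte markers, all 7 had an unadjusted p under 0.05 and were higher in PELP1 FBKO, where 10.1% of tested genes were higher and 5.55% lower at that p, with summed levels of 2799 and 3522 CPM in FLOXED and 5513 and 6142 CPM in PELP1 FBKO. Mog, a myelin protein gene, had a log2 fold change of 0.87 (SE 0.135). Of 7 astrocyte markers 5 were higher in the same sense, with sums of 1174 and 1377 CPM against 1767 and 2038 CPM, and Gja1 stood at 1.13 (SE 0.153). Excitatory neuron markers summed to 9227 and 9192 CPM in FLOXED and to 9185 and 7078 CPM in PELP1 FBKO, with 2 of 8, Hpca and Nrgn, lower at an unadjusted p under 0.05. Camk2a alone held 3563 and 3888 of these CPM in FLOXED and 4527 and 3466 in PELP1 FBKO. Of the 8 markers, 6 had a negative log2 fold change and 2 a positive one, with a median of -0.35. The groups did not overlap in 4 that were lower and 0 that were higher, against 23% and 25.4% of tested genes. In the list of hippocampal fields 4 of 8 were lower and 1 higher at that p, with Pou3f1 of CA1 at -0.93 and Prox1 at 0.93. Of 7 interneuron markers 4 were higher, among them Gad2 at 0.64. Microglial markers (2 of 6 higher at that p) summed to 492 and 461 CPM in FLOXED and to 556 and 766 CPM in PELP1 FBKO, and endothelial and mural markers (2 of 6) to 104 and 150 CPM against 192 and 193 CPM. Of 5 meningeal fibroblast markers 2 were higher, with sums of 90.6 and 96.1 CPM against 90.8 and 135 CPM. Choroid plexus markers summed to 352 CPM in FLOXED 1 and to between 50.2 and 95.9 CPM in the other 3 libraries, 1 of the 4 tested, Ttr, being lower at that p. By edgeR's quasi-likelihood test 0 markers of these lists passed the threshold. DESeq2 called all 7 oligodendrocyte, 5 astrocyte and 2 interneuron markers higher. It also called 1 microglial, 1 endothelial or mural and 1 meningeal fibroblast marker higher. Of the hippocampal field markers it called 1 higher and 3 lower, of the excitatory markers 1 lower, and of the choroid plexus markers 0. Over all 14526 genes in that test, DESeq2 called 319 higher and 130 lower (0.895% lower).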

How the data were processed

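Hippocampal RNA was made into TruSeq libraries and read as single 50-base reads, per the labels' protocols. Each deposited file gives 1 library's whole-number count for every gene, which the authors left unscaled. Per the submitters' processing notes, the tools were TopHat2 2.0.8b, HTSeq and CASAVA 1.8.2, with mouse build mm9; the series text names a human build, but the symbols are those of mouse. Not given in the sources used here are the annotation and HTSeq's settings for strand and overlaps.

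Summary lines of HTSeq, 5 in each file, were excluded from library totals and from testing; reads in no gene made up 14.7% to 15.7% of uniquely placed reads. A count of 0 allows up to 0.171 CPM in the shallowest library (3 reads, counting error only). Genotypes were compared with edgeR 4.0.16 (R 4.3.3), using TMM scaling, filterByExpr (14978 genes), a quasi-likelihood F test of genotype, two-sided, with Benjamini-Hochberg adjustment over all tested genes and a threshold of 0.05. SEs were derived from the F statistic and intervals from its degrees of freedom. DESeq2 1.42.0, limma-voom (limma 3.58.1), edgeR's exact test, other scalings, filters and thresholds, a block for the replicate number, and fits that each lack 1 library, were alternatives. Recovery was tested on simulated data for this comparison over 14978 genes: 16.8% of genes changed 1.5-fold and 79.3% of those changed 2-fold were called.

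Members and lists were chosen with earlier results of these data known. Genes named are the members; of each pathway list those past the threshold and up to 4 with the smallest p, plus direct partners of the complex; the 5 genes with the profile nearest to Pelp1; the nearest 2 genes on each side of Pelp1 and up to 4 of the 20 neighbours by p; and of each marker list the first and up to 2 by p. Some of these are counted without being named. Invs, Noc2l and Zc3h12b were named outside the rule, Invs and Zc3h12b after their values were seen. Per-length levels use GENCODE vM21 and gene order uses RefSeq GRCm38.p6, both of a newer build than mm9, so no gene coordinates are converted.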

Additional observations from a re-analysis of the deposited data

How the results depend on the processing

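Pelp1 kept its direction in all 15 alternatives (log2 fold change -0.63 to -0.55; -0.63 to -0.56 when 1 library was left out) and passed the threshold in 1, edgeR's exact test (-0.59, adjusted p = 0.0432), where the count of members called lower was 1 instead of 0; members called higher stayed at 0. The median of the 7 members ran from -0.22 to -0.15. Among the 15 alternatives, the threshold of 0.10 reuses the estimates of the main fit, so its directions could not differ. The crossed pairing described below is also among the 15. Counts of genes called, higher and lower, were 0 and 0 by the quasi-likelihood test, and 13 and 4 with RLE size factors, 37 and 5 with upper-quartile scaling, 20 and 3 with library size only, 278 and 81 without a count filter, 39 and 4 with a minimum of 50 reads per library, 319 and 130 by DESeq2, 0 and 0 by limma-voom, 562 and 197 by the exact test and 234 and 59 at a threshold of 0.10. Leaving out 1 library gave from 0 to 457 higher and from 0 to 324 lower: without FLOXED 1 the counts were 0 and 0, without FLOXED 2 they were 317 and 216, and without the first or second knockout library 457 and 104 or 274 and 324; a lone library was assumed to vary like the other group. The cause of these shifts was not tested.

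With the replicate number as a block, 387 genes were higher and 179 lower, Pelp1 had an adjusted p of 0.125 and 0 members were called; no source says that a number marks a shared animal or batch. Same-numbered differences correlated at -0.228 over 12280 genes with 50 or more reads per library. The crossed pairing, chosen after seeing the data, gave 223 higher and 91 lower.

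Signs of log2 fold changes turned for Nol9 (0.027 with upper-quartile scaling, 0.0089 with library size only, 0.0079 with a minimum of 50 reads, -0.038 to 0.014 when 1 library was left out), Mdn1 (0.013 with upper-quartile scaling, -0.22 to 0.20 when 1 library was left out) and Dcn (0.024, 0.0095 and 0.0031 under the same 3 settings as Nol9, -0.31 to 0.22 when 1 library was left out). Leaving out 1 library also turned Xrn2 (-0.14 to 0.049), Aqp4 (-0.27 to 0.46) and Camk2a (-0.17 to 0.30). With 2 libraries a genotype and the same coefficient of variation, 14.2% between libraries, for every simulated gene, the test recovered 16.8% of 1.5-fold changes. Real genes vary to different degrees, so this share need not hold for them. The estimates for the partners of Pelp1 are smaller than 1.5-fold. That of Pelp1 itself, a log2 fold change of -0.587, is about the size of the simulated 1.5-fold change (0.585 in log2).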

Other observations

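Tex10 and Las1l each overlap another counted gene in RefSeq's GRCm38.p6 gene table, and the strand setting of the counting is not known. Invs, which overlaps Tex10, read 14.4 and 16.0 CPM in the FLOXED libraries against 16.9 and 19.6 CPM in the knockout libraries, on the side opposite to Tex10. Zc3h12b, which overlaps Las1l, read 5.36 and 6.13 CPM in the FLOXED libraries against 6.89 and 5.24 CPM in the knockout libraries, with the groups overlapping. Pelp1, Wdr18, Nol9 and Mdn1 overlap no gene in that table, and Senp3 overlaps 1 long non-coding RNA gene that the files do not count.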
